A study of Mus musculus with 2 samples.

Results

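The 43 genes described here encode the machinery that copies nuclear DNA, from the proteins that mark and license origins to the helicase, the polymerases, the sliding clamp and the enzymes that supply deoxynucleotides. They were taken by name from the gene tables of 2 RNA-seq libraries, and all 43 were found among the 43346 genes in those tables. The tissue was limb from C57BL/6J mouse embryos at embryonic day 14.5, with mixed-sex littermates pooled, and the sequenced RNA was polyadenylated, over 200 nucleotides long and read from both ends with its strand kept. The 2 libraries were separate biological replicates of this 1 group, so no treatment, genotype or time points could be compared. Fore- and hindlimb are not told apart in the labels, which name no litters and give both libraries the same donor entry. All p-values below measure only the spread between these 2 samples.

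Replication in animal cells starts at origins bound by the origin recognition complex (ORC). In G1 phase ORC, Cdc6 and Cdt1 load the MCM helicase onto DNA as an inactive ring, a step called licensing, and geminin blocks Cdt1 once S phase has begun. At the start of S phase the kinase Cdc7 with its activator Dbf4, together with cyclin-dependent kinases, lets Cdc45 and the GINS complex join MCM to form the active helicase. Polymerase alpha with primase then lays primers, replication factor C (RFC) loads the PCNA clamp, and polymerases epsilon and delta extend the leading and lagging strands. Many of these genes are transcribed at the G1 to S transition under E2F transcription factors, and their transcripts are widely used as marks of cycling cells.

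The libraries held 110172148 and 103363136 deposited counts, and single members drew between 389 and 25148 of them. A count of 0 would have allowed up to 0.0272 and 0.0290 CPM (counts scaled to library size), for counting error only. All 7 limb markers checked, among them Prrx1, Hoxd13 and Col2a1, were detected, at 26.1 to 1622 TPM (length-scaled transcript level).

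Every one of the 43 replication genes was transcribed in the limb. All 43 reached 1 TPM in both libraries, against 62.8% of the 21474 protein-coding genes. TPM divides reads by transcript length and scales every library to the same sum, so levels of different genes can be set side by side on it. In both libraries 38 members were at or above 10 TPM, 18 were at or above 50 TPM and 5 were at or above 100 TPM. The median member stood at 50.4 TPM in replicate 1 and 46.5 TPM in replicate 2, and 35 members had a mean above the median of detected protein-coding genes, 19.9 TPM. Together the members made up 0.242% and 0.227% of all TPM. In whole tissue, fewer cycling cells and less RNA per cell cannot be told apart, so these are levels of the tissue and not of a cell.

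**Figure D1:**
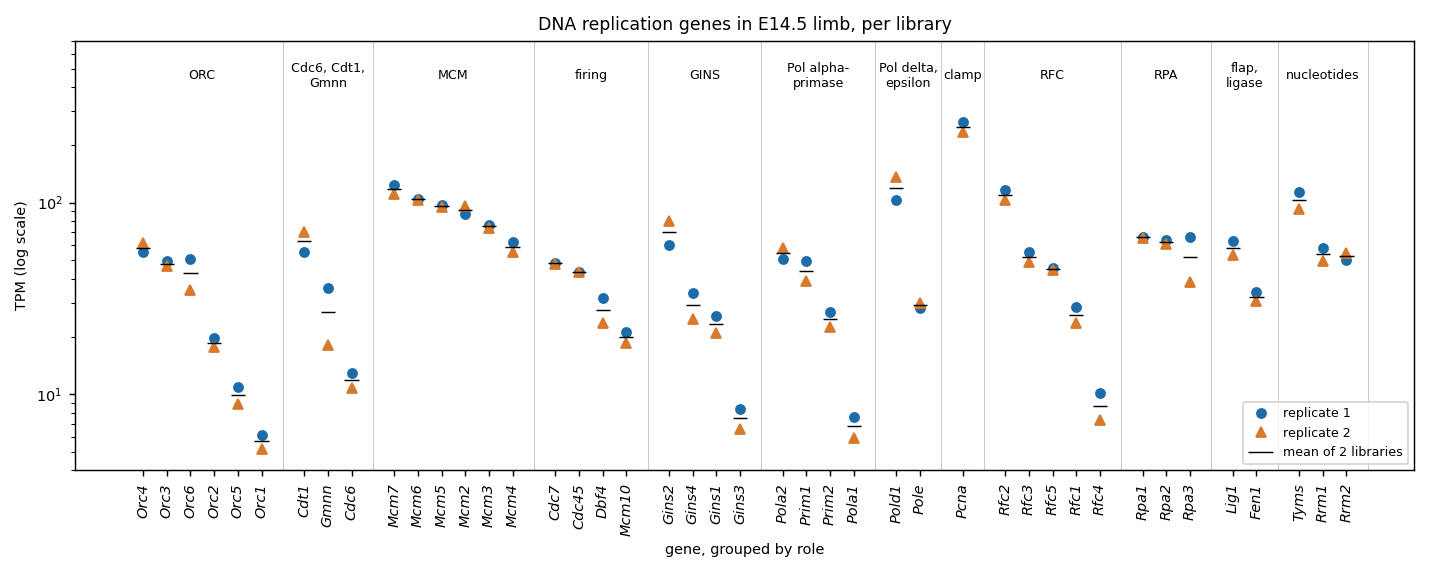
Level of each of the 43 genes in TPM (log scale) in replicate 1 (circles) and replicate 2 (triangles), with the mean of the 2 libraries as a bar, grouped by role. Pcna is the highest gene at 262 and 232 TPM, Orc1 the lowest at 6.15 and 5.20 TPM, and the MCM genes form a narrow band while the ORC and RFC genes are spread widely.

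The order of levels was nearly the same in both libraries. Within ORC, GINS, RFC, polymerase alpha-primase and MCM the highest and the lowest gene were the same in each library. To ask which subunits of a complex differed in level beyond the replicate spread, 64 pairs of genes were compared on the log2(TPM + 1) scale with limma, whose moderated variances pool the spread over 15055 genes, and p was adjusted by Benjamini-Hochberg over the 64 pairs. Of these, 44 differed at an adjusted p under 0.05, and 60 had the same sign in both libraries. For background, 85.2% of all pairs of 13696 protein-coding genes differed at an unadjusted p under 0.05 in the same fit, where the members' count was also 44. The share of called pairs was uneven: 12 of 15 in ORC and 9 of 10 in RFC, but 5 of 15 in MCM and 0 of 3 in replication protein A (RPA). It was near the 85.2% background in ORC and RFC, and below it in MCM, in RPA and over all 64 pairs. Some calls hung on the fit. With no filter on low values 14 calls were lost, at adjusted p from 0.0507 to 0.134: Orc1 with Orc5, Orc2 with Orc5 and Orc6, Mcm2 with Mcm4, Gins2 with Gins1 and Gins4, Rfc1 with Rfc3, Rfc4 and Rfc5, Prim1 with Prim2, Cdt1 with Gmnn, Cdc7 with Dbf4, Fen1 with Lig1, and Tyms with Rrm2. On TMM-scaled CPM, which is not divided by length, 7 calls were lost with the sign unchanged. These were Orc1 with Orc5, Orc2 with Orc6, Mcm4 with Mcm6 and Mcm7, Gins1 with Gins3, Rfc1 with Rfc2, and Pola1 with Prim2. The call of Tyms over Rrm2 was lost there too, as its sign changed. Rfc1 with Rfc3 and Rfc1 with Rfc5 passed there with the opposite sign.

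**Figure D2:**
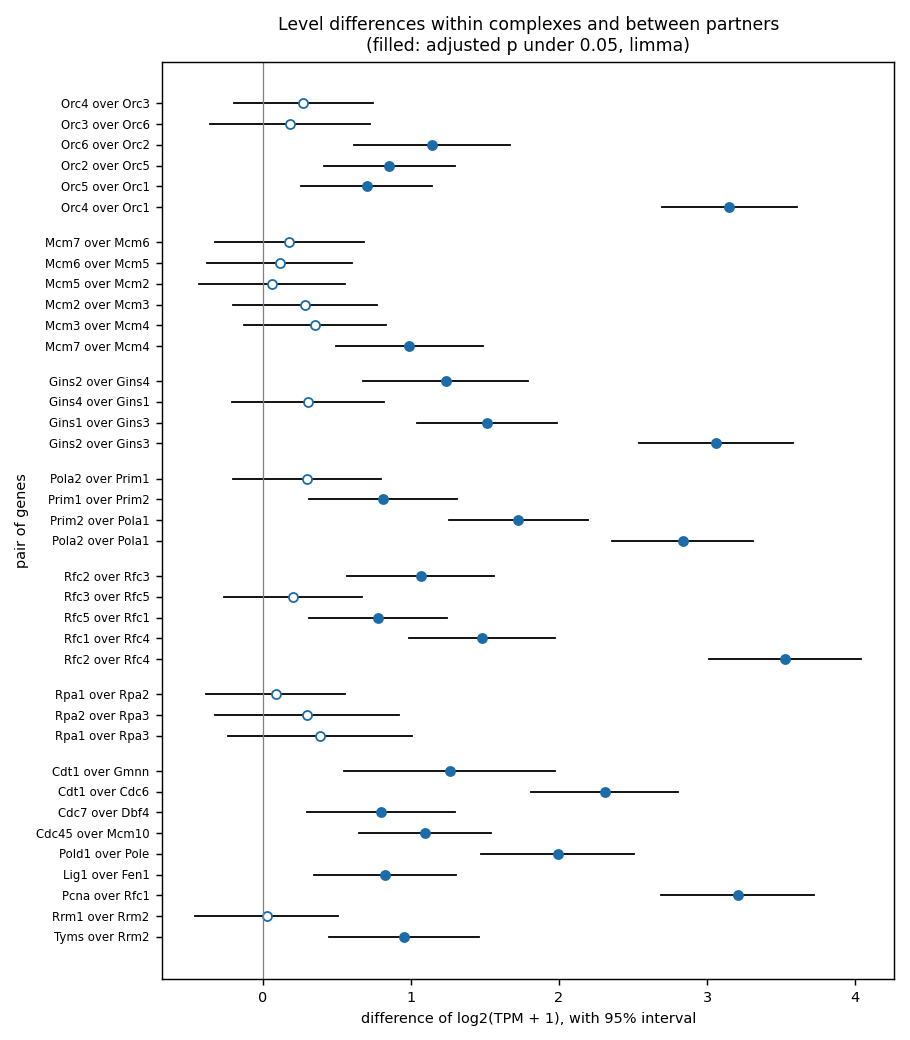
Difference in level between genes that are neighbours in the order of a complex, between its highest and lowest subunit, and between the 9 partner pairs, in log2(TPM + 1) with the 95% interval from limma. Filled points passed an adjusted p of 0.05. Every neighbouring MCM pair and every RPA pair has an interval that includes 0, while the extremes of ORC, GINS, RFC and polymerase alpha-primase are separated by 2.83 log2 units or more.

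At gene level the 6 ORC genes fell into an upper and a lower set. Orc4, an ATPase-fold subunit of the ring, read 54.9 and 61.4 TPM in replicates 1 and 2, and Orc3 read 49.4 and 46.5 TPM. Orc6, a small subunit that is only loosely held in mammalian ORC, read 50.8 and 34.9 TPM, and its libraries lay further apart than those of Orc3 and Orc4. These 3 did not separate by the limma test: Orc4 was above Orc3 by 0.27 (95% interval -0.20 to 0.74, adjusted p = 0.232), and Orc3 above Orc6 by 0.18 (-0.36 to 0.72, adjusted p = 0.459).

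The other 3 ORC genes were each below every gene of the upper set. Orc2 read 19.6 and 17.6 TPM, Orc5 read 10.9 and 8.87 TPM, and Orc1, the large subunit whose protein leaves chromatin after S phase begins in many mammalian cells, read 6.15 and 5.20 TPM. Each step down the order passed the limma test, with Orc6 over Orc2 by 1.14 (adjusted p = 0.00499), Orc2 over Orc5 by 0.85 (adjusted p = 0.00740) and Orc5 over Orc1 by 0.70 (adjusted p = 0.0142). Orc4 stood 10.3 times as high as Orc1 in mean TPM, a difference of 3.15 log2 units (SE 0.18, adjusted p = 0.000156). The ratio of highest to lowest was 5.87 on posterior mean TPM and 5.94 on CPM. The last place of Orc1 is less firm than its TPM alone shows. Its deposited posterior mean TPM, which averages over the uncertainty in assigning reads to transcripts, was 10.7 and 10.5, with the authors' own credibility bounds at 5.79 to 19.6 in replicate 1 and 4.84 to 21 in replicate 2. On that scale the step from Orc5 to Orc1 turned over, with Orc1 above Orc5 by 0.09 (adjusted p = 0.613).

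Cdt1, which brings MCM to ORC, read 55.1 and 70.7 TPM. Its inhibitor geminin (Gmnn) read 35.8 and 18.0 TPM, the widest gap between the libraries of any member on the log scale. Cdc6, the ATPase that completes the loading platform, read 13 and 10.7 TPM. Cdt1 was the highest of the 3 in both libraries, but the distance to geminin was uneven: 0.61 log2 units in replicate 1 and 1.91 in replicate 2. By limma the mean difference was 1.26 (SE 0.28, adjusted p = 0.0102), and Cdt1 exceeded Cdc6 by 2.31 (SE 0.20, adjusted p = 0.000249).

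In the helicase the 6 subunits are present in equal number, and their transcripts lay within 2.00-fold of each other. Mcm7 read 124 and 111 TPM, Mcm6 read 104 and 104 TPM, and Mcm5 read 97.0 and 94.9 TPM. Mcm2 read 87.6 and 96.1 TPM, Mcm3 read 76.3 and 74.1 TPM, and Mcm4 read 62.4 and 55.5 TPM. The highest-to-lowest ratio was 1.99 in replicate 1 and 2.01 in replicate 2. No neighbours in the order passed the limma test, and the widest of these steps was Mcm3 over Mcm4 by 0.35 (95% interval -0.13 to 0.83, adjusted p = 0.167). With limma on differences taken within each library, which pairs the genes by library, this step passed narrowly (adjusted p = 0.0497), as did Mcm3 below Mcm5 and Mcm6, and 8 of the 15 MCM pairs were called. On CPM the neighbours Mcm2 and Mcm3 differed by 0.92 (adjusted p = 0.00131). The 5 pairs that passed were Mcm4 below Mcm2, Mcm5, Mcm6 and Mcm7, and Mcm3 below Mcm7. Mcm7 exceeded Mcm4 by 0.99 (SE 0.20, adjusted p = 0.00672). A pair that missed the threshold is not shown to be equal: Mcm6 and Mcm7 could differ by up to 0.68 log2 units within the 95% interval of their difference.

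Cdc7 read 48.4 and 47.9 TPM and its activating subunit Dbf4 read 31.7 and 23.5 TPM. The kinase subunit was the higher one in both libraries, by 0.80 log2 units in limma (SE 0.20, adjusted p = 0.0139). Cdc45, the helicase cofactor, read 43.6 and 43.4 TPM. Mcm10, a protein needed to activate the assembled helicase, read 21.1 and 18.6 TPM, and Cdc45 exceeded it by 1.10 (SE 0.18, adjusted p = 0.00304).

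The 4 GINS proteins also join the helicase in equal number, but their gene-level TPM covered a 9.35-fold range, against 3.43-fold on CPM. Gins2 read 60.1 and 80.0 TPM, Gins4 read 33.7 and 24.7 TPM, Gins1 read 25.6 and 20.9 TPM, and Gins3 read 8.40 and 6.58 TPM. By limma Gins2 was above Gins4 by 1.24 (adjusted p = 0.00460) and Gins1 above Gins3 by 1.52 (adjusted p = 0.00102). Gins4 and Gins1 did not separate (0.31, 95% interval -0.21 to 0.82, adjusted p = 0.232). With limma on CPM they did, with Gins1 minus Gins4 at -0.73 (adjusted p = 0.00979). The first place of Gins2 rests on 1 short transcript, described with the isoforms below.

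Polymerase alpha and primase work as 1 complex of 4 proteins. Pola2, its accessory subunit, read 50.9 and 57.7 TPM, and Prim1, the catalytic primase, read 49.5 and 38.9 TPM. Prim2, the large primase subunit, read 27.0 and 22.4 TPM, and Pola1, the catalytic polymerase subunit, read 7.64 and 5.93 TPM. Pola1 was thus the lowest in both libraries, and Pola2 exceeded it 8.0-fold in mean TPM (the range of the complex was 3.48-fold on CPM), by 2.83 log2 units in limma (SE 0.19, adjusted p = 0.000156). Prim1 exceeded Prim2 by 0.81 (adjusted p = 0.0132) and Prim2 exceeded Pola1 by 1.73 (adjusted p = 0.000644). Pola2 and Prim1 did not separate (0.30, 95% interval -0.20 to 0.80, adjusted p = 0.232). With limma on CPM they did, Pola2 over Prim1 by 0.65 (adjusted p = 0.00875). Pold1, the catalytic subunit of the lagging-strand polymerase delta, read 103 and 136 TPM. Pole, its counterpart on the leading strand, read 28.3 and 29.8 TPM, below Pold1 in both libraries and by 1.99 in limma (SE 0.21, adjusted p = 0.000568). Pold1 was 4.11 times as high as Pole in mean TPM, but 1.86 times as high on CPM. Transcripts annotated as protein coding held 46.6 and 60.8 TPM of Pold1 and 19.25 and 23.59 TPM of Pole. A further 15.8% of Pold1 lay in transcripts of unknown type.

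Pcna (ENSMUSG00000027342.10, chromosome 2, 132249162 to 132253314, minus strand, mm10) was the highest member at 262 and 232 TPM, from 25148 and 20301 counts. Its processed pseudogene Pcna-ps2 held 0.88 and 0.68 TPM. Pcna and Orc5 were the only members with an expected count further than 0.005 from the nearest whole number, a mark of reads shared between genes. The RFC ring has 1 copy of each of 5 subunits, and their levels covered a 12.6-fold range, the widest of the complexes on the TPM scale. Rfc2 read 117 and 103 TPM, Rfc3 read 55.3 and 48.7 TPM, and Rfc5 read 45.4 and 44.5 TPM. Rfc1, the large subunit, read 28.4 and 23.5 TPM, and Rfc4, a small subunit, read 10.1 and 7.33 TPM, on 765 and 389 counts. This order was the same in both libraries. Every step but Rfc3 over Rfc5 (0.20, 95% interval -0.26 to 0.67, adjusted p = 0.357) passed the limma test. Rfc2 exceeded Rfc4 by 3.53 (SE 0.20, adjusted p = 0.000156). With limma on CPM, Rfc1 instead lay above Rfc3 by 0.83 (adjusted p = 0.00279) and above Rfc5 by 0.59 (adjusted p = 0.0144). Pcna exceeded Rfc1 by 3.21 (SE 0.20, adjusted p = 0.000156).

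The RPA trimer, which coats unwound DNA, was the most even of the complexes on the TPM scale. Rpa1 read 66.5 and 65.7 TPM, Rpa2 read 63.6 and 60.9 TPM, and Rpa3 read 65.9 and 38.5 TPM. The 3 genes lay within 1.05-fold of each other in replicate 1 and within 1.71-fold in replicate 2, where Rpa3 was low. With limma 0 of the 3 pairs differed, also at an unadjusted p under 0.05. The largest difference was Rpa1 over Rpa3 by 0.38 (95% interval -0.24 to 1.01, adjusted p = 0.225). On TMM-scaled CPM, which is not divided by length, limma called 2 of the 3.

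Lig1, the ligase that seals lagging-strand fragments, read 62.9 and 53.0 TPM and Fen1, the flap nuclease that trims them, read 34.0 and 30.5 TPM. Lig1 was higher in both libraries, by 0.82 in limma (SE 0.19, adjusted p = 0.0111). The ribonucleotide reductase subunits, Rrm1 (large) and Rrm2 (small), read 57.9 and 49.5 TPM and 50.4 and 54.9 TPM. Their order changed between the libraries, and their difference was 0.02 (95% interval -0.46 to 0.51, adjusted p = 0.901). On CPM, not divided by length, Rrm1 was the higher in both libraries (150 and 126 against 63.0 and 67.2). Tyms, which makes thymidylate, read 114 and 92.3 TPM and stood above Rrm2 by 0.95 (SE 0.20, adjusted p = 0.00822), again a place that rests on transcripts not annotated to make protein.

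Gene-level TPM adds up all transcripts of a gene, including those annotated as retained introns, processed transcripts or targets of nonsense-mediated decay, and a short transcript needs few reads for a high TPM. The members had 215 transcripts in the tables, 9 of them not matched in the annotation used for names, and 8 members had 1 transcript each. The median member had 77.3% of its TPM in its leading transcript. In 13 members the leading transcript either held under 60% or was not annotated as protein coding. For 6 of these the leading transcript, by mean share of the 2 libraries, was no annotated protein-coding one: Orc4, Mcm10, Gins2, Rfc1, Rpa1 and Tyms. In replicate 1 alone a protein-coding transcript led Orc4, and Rpa1 was close to a tie (48.7% against 48.35% for its main protein-coding transcript). In 8 members protein-coding transcripts held under 50% of the gene's TPM even with transcripts of unknown type counted as coding. No share over all genes stands beside these counts, so they are not shown to be particular to the replication genes.

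Gins2 was the clearest case. Its retained-intron transcript of 511 nucleotides took 74.8% and 87.6% of the gene's TPM in the 2 libraries, while its protein-coding transcript of 3900 nucleotides took 17.3% and 11%. Counted on protein-coding transcripts only, Gins2 read 10.4 and 8.78 TPM. The order of GINS then turned over, with Gins2 below Gins4 by 1.5 (adjusted p = 0.000430) and below Gins1 by 1.09 (adjusted p = 0.00174) in limma. The range of GINS narrowed from 9.35-fold to 3.90-fold. In Tyms a transcript of 797 nucleotides annotated to nonsense-mediated decay held 52.3% and 53.8%, a retained-intron transcript held 33.1% and 27.7%, and the coding transcript of 3163 nucleotides held 8.19% and 10.7%. Its protein-coding level was 9.33 and 9.89 TPM, and it stood below Rrm2 by 2.28 (adjusted p = 4.80e-05) instead of above it. Gins2 remained above Gins3 in both libraries, by 0.32, which missed the threshold (adjusted p = 0.142).

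Other members with mixed transcripts moved too. A retained-intron transcript of 716 nucleotides held 48.7% and 53.4% of Rpa1, and the gene's protein-coding level of 33.8 and 29.0 TPM put it below Rpa2 by 0.81 (adjusted p = 0.00779). Orc4 was divided over 13 transcripts. The processed transcript that led by mean share held 15.8% and 21%. A protein-coding transcript of 4066 nucleotides held 21.2% and 13.8%, and so led in replicate 1. On protein-coding transcripts Orc4 read 21.7 and 24.8 TPM and Orc3 read 23.8 and 19.4 TPM, so that Orc6, all of whose TPM was protein coding, led ORC. In limma Orc6 then exceeded Orc3 by 0.94 (adjusted p = 0.00657) and Orc4 by 0.83 (adjusted p = 0.00999). Orc3 and Orc4 came nearer to the lower set, and Orc2 no longer separated from Orc3 (Orc2 minus Orc3 was -0.35, adjusted p = 0.122) or from Orc4 (-0.46, adjusted p = 0.0549). In Mcm10 a retained-intron transcript held 41.6% and 46.3%, and 8.87 and 7.23 TPM were protein coding. Lig1, above Fen1 at gene level, was below it on this count by 0.46, a difference that missed the threshold (adjusted p = 0.0754). Cdc7 over Dbf4 was 0.49 (adjusted p = 0.0661) and Prim1 over Prim2 was 0.19 (adjusted p = 0.477), so both calls were lost on protein-coding transcripts. Mcm4 below Mcm6 was lost as well (-0.55, adjusted p = 0.0539). Calls gained in limma with the sign unchanged were Pola2 over Prim1 by 0.95 (adjusted p = 0.00709) and Rfc3 over Rfc5 by 0.95 (adjusted p = 0.0036). Mcm3 below Mcm2, Mcm5 and Mcm6 was gained too.

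In MCM the coding count changed the bottom place. Mcm2, Mcm4 and Mcm5 had a single transcript each, while Mcm3 had 20.7% and 24.0% in a retained-intron transcript. Mcm3 read 52.5 and 47.2 protein-coding TPM, the lowest of the 6 in both libraries. It did not separate from Mcm4, with Mcm3 minus Mcm4 at -0.24 (limma, adjusted p = 0.343). The leading transcript of Rfc1, 55.2% and 46.1% of its TPM, was absent from the annotation used for names, so its type is not known and Rfc1 was left out of this count. Pold1, with 15.8% of its TPM in such transcripts, was left out too. Over the 58 remaining pairs, 39 differed at an adjusted p under 0.05. This count was added after the gene-level values had been seen.

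**Figure D3:**
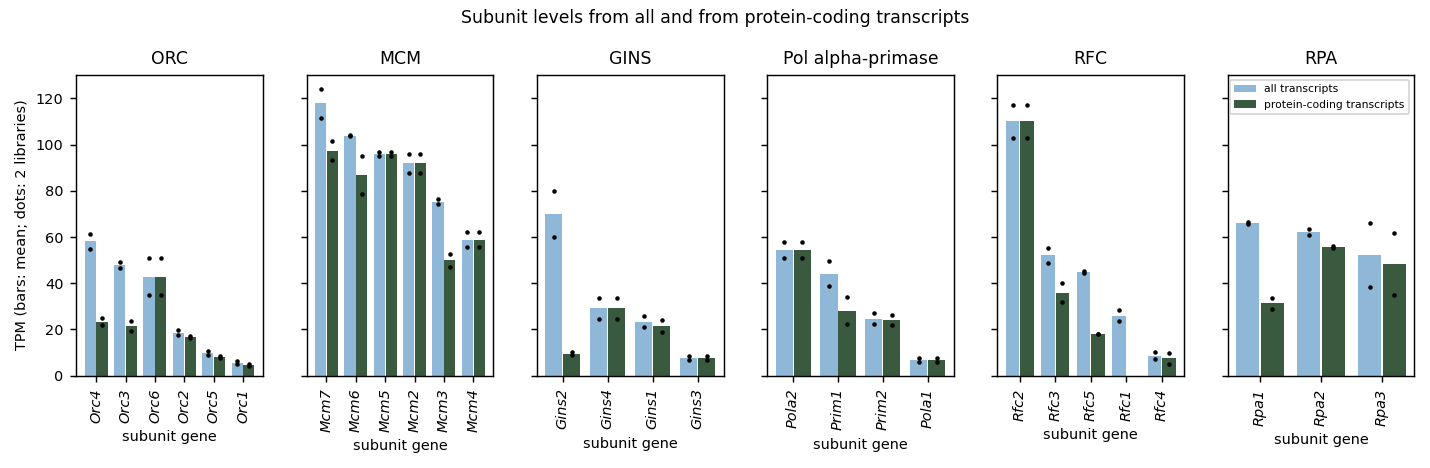
Mean TPM of the subunits of 6 complexes from all transcripts (light bars) and from protein-coding transcripts only (dark bars), with the 2 libraries as dots. Gins2, Rpa1, Orc4, Orc3 and Rfc5 lose more TPM than they keep, Mcm3 drops to the level of the lower MCM genes, and Rfc1 has no dark bar because most of its TPM lies in transcripts of unknown type.

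Some transcript shares differed widely between the libraries. A retained-intron transcript of 449 nucleotides held 0% of Rfc4 in replicate 1 and 29.9% in replicate 2. A processed transcript of 2968 nucleotides held 18.2% and 45.4% of Lig1, while another of 3054 nucleotides held 23.4% and 0.02%. These are shares of single libraries and were not tested.

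The 2 libraries differed slightly but unevenly over the members. Of the 38 members whose mean reached 10 TPM, 30 (78.9%) were lower in replicate 2, against 44.6% of the 9612 genes at that level. The median log2 ratio of replicate 2 over replicate 1 was -0.16 for these members and 0.04 for all genes. By a factor of 5/4 or more, 6 members were lower in replicate 2, where 15.3% of all genes were, and 3 were higher, where 16.6% of all genes were, so the members had no excess of large ratios in the downward direction. The 6 lower ones were Gmnn (35.8 to 18.0 TPM), Rpa3 (65.9 to 38.5), Orc6 (50.8 to 34.9), Gins4 (33.7 to 24.7), Dbf4 (31.7 to 23.5) and Prim1 (49.5 to 38.9). The 3 higher ones were Gins2 (60.1 to 80.0), Pold1 (103 to 136) and Cdt1 (55.1 to 70.7). Geminin and Cdt1, inhibitor and target, thus lay on opposite sides. The rise of Gins2 did not hold on CPM (39.4 to 37.3) or on protein-coding transcripts (10.4 to 8.78 TPM), where it was lower in replicate 2. The lower set also changed on CPM. Prim1 (56.2 to 47.0) no longer reached 5/4 there, while Cdc6 (25.2 to 19.7), Gins1 (15.1 to 11.5) and Rfc1 (80.2 to 63.3) did. With 1 library on each side these ratios have no test.

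The library ratio moved with base composition. Over the 9532 genes with a known GC content of the leading transcript, genes under 45% GC had a median log2 ratio of -0.15, those from 45% to 55% one of 0.0018, and those at 55% or above one of 0.24. The members followed the same order, with medians of -0.23 over 7 genes, -0.17 over 25 genes and 0.36 over 5 genes. Pearson's r between GC content and log2 ratio was 0.51 (Spearman's rho 0.48) across 37 members and 0.42 (rho 0.50) across all these genes. Genes within a pair of libraries are not independent replicates and these values describe the 2 libraries. Pold1, Cdt1 and Gins2, the 3 higher members, were all at the GC-rich end. Rpa1 and Mcm2 lay there too, at 56.0% and 55.5% GC, with log2 ratios of -0.017 and 0.13. For Gins2 and Rpa1 the leading transcript was a retained-intron one. The part of GC content in the ratios of single members was not tested.

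**Figure D4:**
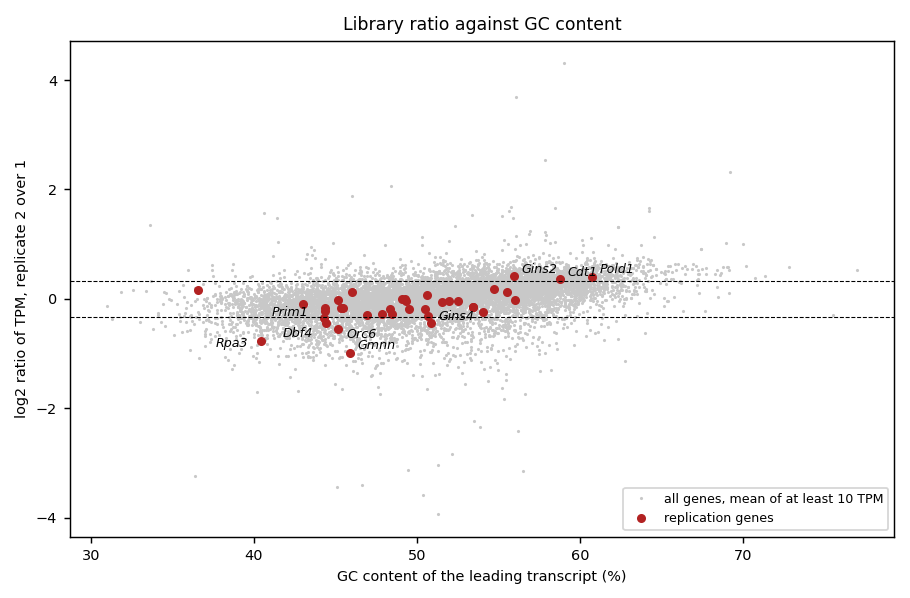
Log2 ratio of TPM in replicate 2 over replicate 1 against the GC content of the leading transcript (%), for all genes averaging 10 TPM or more (grey) and the replication genes among them (red). Dashed lines mark a factor of 5/4, and the 9 members beyond them are named: the 3 higher ones lie at high GC content and the 6 lower ones at low to middle GC content.

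Control of many replication genes by E2F is well known, and the letters of its site can be looked for in their promoters. RefSeq promoter sequences of GRCm38.p6 (the assembly of mm10), from 250 bases before to 50 bases after the start, were matched by symbol for 35 of the 43 members, giving 43 promoters. They were searched on both strands for 4 strings of the E2F site (TTTCCCGC, TTTGGCGC, TTTCGCGC and TTTGCCGC). Of the member promoters 13 (30.2%), each of a different gene, held at least 1 string, against 2.26% of all 32851 promoters and 3.78% of those of detected protein-coding genes. The following 30-base windows are shown because they carry that difference: 4 belong to MCM genes with high levels and 4 to the lowest members that hold a string. Each is read on the strand of its gene, and the capitals mark the string or its reverse complement.
Mcm3 (chr1:20820275-20820304, minus): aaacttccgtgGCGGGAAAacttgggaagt
Mcm5 (chr8:75109345-75109374, plus): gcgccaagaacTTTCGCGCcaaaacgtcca
Mcm6 (chr1:128359797-128359826, minus): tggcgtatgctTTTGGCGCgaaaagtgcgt
Mcm7 (chr5:138172030-138172059, minus): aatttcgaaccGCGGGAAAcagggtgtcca
Orc1 (chr4:108579416-108579445, plus): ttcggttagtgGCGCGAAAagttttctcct
Cdc6 (chr11:98908002-98908031, plus): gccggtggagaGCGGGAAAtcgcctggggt
Gins3 (chr8:95633507-95633536, plus): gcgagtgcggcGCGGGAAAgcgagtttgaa
Pola1 (chrX:93632275-93632304, minus): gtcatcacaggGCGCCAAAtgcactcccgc

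The strings occurred in several of the roles, and their spread over the roles was not tested. Gmnn, Gins1, Gins2, Gins4, Mcm4, Pole, Prim2 and Rfc2 had no matched promoter and were not searched. Of the 6 MCM genes Mcm3, Mcm5, Mcm6 and Mcm7 held at least 1, Mcm2 held none in its window and Mcm4 was not matched. In ORC they were found in Orc1 and Orc3, and the other carriers were Cdc6, Cdt1, Gins3, Pola1, Pold1, Rfc3 and Lig1. Together these 13 promoters held 19 strings. In Mcm5 and Mcm6, 2 strings on opposite strands overlapped, so that the window printed for each holds both, and in Rfc3 the pair lay 10 bases apart around the start. The carriers ranged from Orc1 at a mean of 5.67 TPM to Pold1 at 119 TPM, from the bottom of the members to near their top. With only the 250 bases before the start, 9 member promoters (20.9%) held a string, against 1.86% of all.

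The other strings searched, on both strands, differed less from their background. The CCAAT box was found in 55.8% of the member promoters and 37.4% of all, with 37.3% among detected protein-coding genes. The GC box GGGCGG was found in 72.1% against 35.7%, but 61.8% of the promoters of detected protein-coding genes held it. The cell cycle homology strings TTTGAA and TTCGAA were found in 20.9% against 19.2%, and in 13.8% of the promoters of detected protein-coding genes. A match describes letters in a window and not a bound site, and no binding data were examined.

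**Figure D5:**
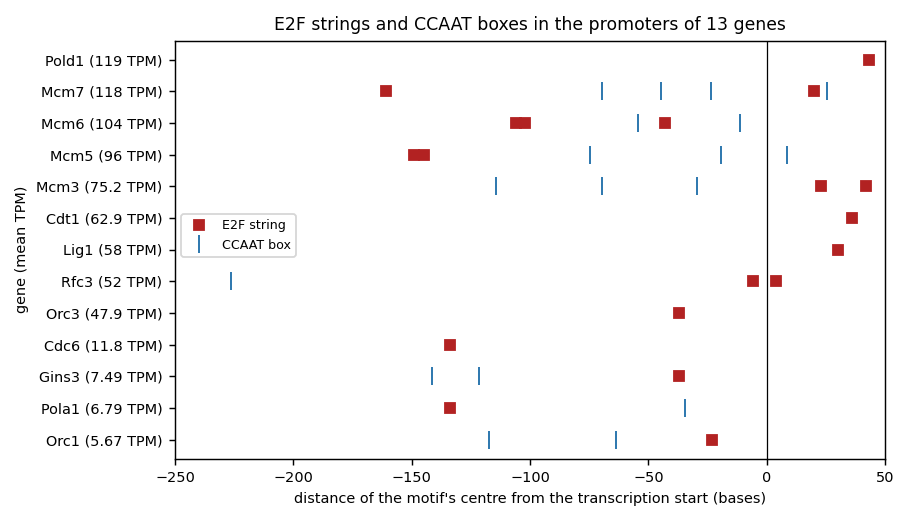
Position of E2F strings (squares) and CCAAT boxes (bars) in the promoters of the 13 members that hold an E2F string, as distance in bases from the transcription start, with genes ordered by mean TPM. E2F strings lie on both sides of the start, and genes of low and high level carry them.

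Many members start close to another gene that runs the opposite way. A start of any gene on the other strand lay within 1000 bases for 20 of the 43 members (46.5%), against 18.6% of protein-coding genes and 25.2% of those detected. For 13 members (30.2%) this neighbour was protein coding, against 10.9% of all protein-coding genes and 15.2% of those detected. The level of the neighbour was often far from that of the member. Mcm4 (62.4 and 55.5 TPM) starts 466 bases from Prkdc, the catalytic subunit of DNA-dependent protein kinase, which read 2.68 and 2.05 TPM. Pole starts 120 bases from Pxmp2, at 2.69 and 3.12 TPM, and Rpa1 starts 109 bases from Smyd4, at 6.56 and 5.90 TPM. In each of these 3 the replication gene was the higher one in both libraries.

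In other pairs the neighbour was the higher gene. Orc1, the lowest member, starts 87 bases from Prpf38a, a splicing factor gene, at 43 and 24.0 TPM. Fen1 starts 155 bases from Tmem258, at 148 and 152 TPM. Other pairs were nearer to each other in level: Orc6 starts 170 bases from Vps35 (54.9 and 45.5 TPM) and Cdc45 starts 208 bases from Ufd1 (60.3 and 50.9 TPM). Orc3 starts 13 bases from Rars2 (35.2 and 24.9 TPM), which was below Orc3 in both libraries. Mcm7 starts 420 bases from Ap4m1, which read 62.6 and 89.96 TPM, higher in replicate 2 where Mcm7 was lower. The remaining protein-coding neighbours were Mbd5 beside Orc4, Slc25a40 beside Dbf4, Abhd12 beside Gins1 and Umad1 beside Rpa3. Of the 14 such pairs, 1 (Gm45062, also beside Rpa3) had no value in the tables, and in 8 the neighbour was below the member in mean TPM. No source used here says whether counting used strand, so reads from overlapping stretches of such neighbours cannot be told apart. The level differences between neighbours were not tested.

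A list of 48 further replication genes, among them accessory polymerase subunits, checkpoint mediators, chromatin assembly factors and nucleotide enzymes, was expressed throughout. All 48 were at or above 1 TPM in both libraries, against 62.8% of protein-coding genes. Their mean levels had a median of 31.5 TPM and a range from 2.55 to 233 TPM. The 4 highest were Dtymk (232 and 233 TPM), a thymidylate kinase, Ssrp1 (213 and 216 TPM), a subunit of the histone chaperone FACT, Pold2 (131 and 168 TPM), an accessory subunit of polymerase delta, and Tk1 (133 and 143 TPM), thymidine kinase. Pold2 and Pold1 were thus both above 100 TPM at gene level and both higher in replicate 2. In the list 35 of 48 genes were lower in replicate 2. Of all genes averaging 10 TPM or more, a level that 42 of the 48 reached, 44.6% were lower. Among the 42 averaging 10 TPM or more, 12 (28.6%) were lower by that factor of 5/4, where 15.3% of all genes were, and 1 was higher, where 16.6% were.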

How the data were processed

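Polyadenylated RNA of E14.5 limb was measured in 2 libraries of 1 group. The tables were made against mm10 with GENCODE M4, per the text file deposited with them, by a program that no source used here names. The authors deposited, per the file headers, expected counts (estimated reads, not whole where reads are shared), TPM, posterior mean TPM, isoform shares in percent, and credibility bounds of TPM (kept as a score). Effective lengths were given too. All were used as deposited. The 26345 rows of spike-ins, phiX and entries with only a number for a name entered no total or test. GENCODE M21 gave gene names, types and positions (884 of 43346 identifiers were not matched). Promoters came from RefSeq.

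Pairs were compared with limma 3.58.1 in R 4.3.3 by an intercept-only fit to log2(TPM + 1) over genes averaging 1 TPM or more, with a trended prior, which gave 5.37 degrees of freedom. Differences printed are on that scale, which understates those of low genes. The step was tested on simulated data. TMM factors (edgeR 4.0.16) were 1.01 and 0.992, and DESeq2 1.42.0 gave size factors of 1.04 and 0.961. These and other settings were tried as alternatives. GC content is that of a gene's leading transcript. All 43 members could be named. Pairs are given in full for neighbours in the order of a complex, for its extremes and for 9 partner pairs. Other genes are named for the 4 highest of the further list and for neighbouring starts within 1000 bases. The members and lists were chosen with earlier results of these data known.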

Additional observations from a re-analysis of the deposited data

How the results depend on the processing

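All 43 members were detected under each threshold and scale tried and in each library alone. The count of 44 called pairs was 44 with a pseudocount of 0.1, 44 on TMM-scaled CPM, 43 on posterior mean TPM, 47 with differences taken within each library, 31 with no filter on low values (42 at an unadjusted p under 0.05) and 25 with genes of at least 10 TPM, where only 45 pairs could be fitted. Of the called pairs 22 kept their call in every fit run, and 0 changed sign when either replicate was left out. Differences that changed sign, whether or not they passed the threshold, were Orc1 minus Orc5 on posterior mean TPM (0.088) and these on CPM, not divided by length: Rfc1 minus Rfc3 (0.83), Rfc1 minus Rfc5 (0.59), Tyms minus Rrm2 (-0.012), Mcm2 minus Mcm6 (0.22), Mcm2 minus Mcm7 (0.20), Mcm3 minus Mcm4 (-0.38), Mcm5 minus Mcm6 (0.30), Mcm5 minus Mcm7 (0.29) and Rfc3 minus Rfc5 (-0.23). On protein-coding transcripts they were Orc3 minus Orc6 (-0.94), Orc4 minus Orc6 (-0.83), Gins1 minus Gins2 (1.09), Gins2 minus Gins4 (-1.5), Rpa1 minus Rpa2 (-0.81), Rpa1 minus Rpa3 (-0.55), Fen1 minus Lig1 (0.46), Tyms minus Rrm2 (-2.28), Mcm2 minus Mcm6 (0.085), Mcm3 minus Mcm4 (-0.24) and Mcm5 minus Mcm6 (0.15). With 1 replicate left out, the uncalled differences Orc3 minus Orc6 (-0.040 to 0.40), Mcm2 minus Mcm5 (-0.14 to 0.017), Rpa2 minus Rpa3 (-0.052 to 0.65) and Rrm1 minus Rrm2 (-0.15 to 0.20) changed sign. The cause was not tested. At 1.5-fold, 0 members were higher and 2 lower in replicate 2, with no share of all genes at that factor to set beside them. On CPM the members' median log2 ratio was -0.19 with TMM and -0.22 with plain library sizes, and 30 and 31 of 38 members were lower. Groups could not be paired by replicate, since there is only 1. With 2 libraries the spread of a single gene is poorly known.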
